A study of Saccharomyces cerevisiae with 30 samples.

Results

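The translation factor genes described here were the 10 abundant yeast genes for elongation and initiation factors TEF1, TEF2, EFB1, TEF4, EFT1, EFT2, YEF3, HYP2, TIF1 and TIF2, chosen by gene name. The rule itself used no measured value, but earlier results of these data were known when it was set. All 10 were present among the 7126 features of the count tables and passed the filter on low values in every comparison. The question was whether they moved with the ribosomal protein (r-protein) genes when ribosome assembly was disturbed, and 135 r-protein genes were used for that comparison.

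RNA-seq of rRNA-depleted total RNA was made from Saccharomyces cerevisiae grown to mid-log phase in rich medium, in 30 samples. The 5 strains of the auxin experiment were mock-treated or given auxin (100 uM indole-3-acetic acid) for 20 min, with replicates A and B of each. All 5 were BY4741 derivatives with the rice auxin receptor osTIR1 under the GPD1 promoter and with RPB3-3xFLAG. The WT strain had no degron, and each of the other 4 strains (LAS1-AID, RRP17-AID, RAT1-AID or RRP44-AID) carried 1 rRNA processing factor fused to 3xV5-IAA7, the tag that lets auxin direct a protein to degradation. By the study's account the tag alone impaired Rrp17 in part, before any auxin. Untagged BY4741 cells received diazaborine (DZA, 15 ug/ml), an inhibitor of the 60S assembly ATPase Drg1, or its vehicle (0.1% DMSO) for 15 or 45 min, again with replicates A and B. A BY4741 strain with RPB3-3xFLAG::natMX6 was sampled at 0 and 15 min of 1.5 mM diamide, a thiol oxidant, with 1 library each. By the study's account the diamide libraries were built by another protocol than the auxin libraries. Auxin removes the tagged protein, so the mRNA tables cannot check the depletion itself.

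Values are normalised read counts, scaled by the study within each table, so they state a transcript's abundance relative to the others of its library. In bulk libraries fewer cells with a transcript and less of it per cell cannot be told apart. Reads could be recovered for 26 of these libraries, which held between 15014154 and 99585064 reads on the listed features, and the diamide libraries 4613828 and 5045070. The 2 RRP17-AID mock columns were identical for all 7126 features and were used as 1 library. MATa markers were abundant in all 27 remaining libraries (STE2 at 11867 to 45358 normalised counts), and the MATalpha gene MFALPHA1 stayed between 2.29 and 119. URA3, deleted in BY4741, was at 0 in all 27. Of the other genes checked as deleted or truncated in BY4741, MET17 lay at 0 to 1.40 and LEU2 at 0 to 308. HIS3, at 555 to 2342 normalised counts, was detected in every library.

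Elongation in yeast is a cycle of a few very abundant proteins. eEF1A carries aminoacyl-tRNA to the ribosome, eEF1B recharges eEF1A with GTP, eEF2 moves the ribosome along the mRNA, the fungal ATPase eEF3 clears the exit site, and eIF5A helps the peptide bond form at difficult sequences. eIF4A is the RNA helicase of initiation. The genes for these factors are commonly grouped with the r-protein genes as growth-regulated components of the translation machinery.

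eEF1A is encoded by TEF1 (YPR080W, chromosome XVI, 700594 to 701970, plus strand) and TEF2 (YBR118W, chromosome II, 477671 to 479047, plus strand), and coordinates here are those of the RefSeq R64 coding regions. EFB1 (YAL003W, chromosome I, 142174 to 143160, plus strand) encodes the exchange subunit eEF1B alpha and TEF4 (YKL081W, chromosome XI, 282891 to 284455, plus strand) a gamma subunit, and each has 1 intron. EFT1 (YOR133W, chromosome XV, 575098 to 577626, plus strand) and EFT2 (YDR385W, chromosome IV, 1243230 to 1245758, plus strand) encode eEF2. YEF3 (YLR249W, chromosome XII, 636780 to 639914, plus strand) encodes eEF3 and HYP2 (YEL034W, chromosome V, 85676 to 86149, plus strand) eIF5A. TIF1 (YKR059W, chromosome XI, 554987 to 556174, plus strand) and TIF2 (YJL138C, chromosome X, 153504 to 154691, minus strand) encode eIF4A.

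There were 3 pairs among the 10 genes that are near-identical copies, and this bears on every value given for 1 copy. TEF1 and TEF2 differ at 2 of 1377 coding bases, EFT1 and EFT2 at 4 of 2529, and TIF1 and TIF2 at 6 of 1188. The longest identical stretch was 761, 1262 and 644 bases in the 3 pairs. Of all 50-base windows of the first gene, 7.53% were absent from the second for TEF1, 8.06% for EFT1 and 15.1% for TIF1. How reads with several alignments were counted is not given in the sources used here. The division of a pair's signal between its copies is therefore uncertain. Its total is uncertain too, because reads shared by both copies may be missing from the counts. Summed values are given where they change a limma call. One 50-base coding window per pair is shown because it holds a base by which a read could be assigned. The capital marks the differing base, and positions count from 1 at the first coding base (TEF1 to TEF2 T762C, EFT1 to EFT2 A447G, TIF1 to TIF2 T60C). The windows are chrXVI:701330-701379 (TEF1), chrII:478407-478456 (TEF2), chrXV:575519-575568 (EFT1), chrIV:1243651-1243700 (EFT2) and chrXI:555021-555070 (TIF1) on the plus strand and chrX:154608-154657 (TIF2) on the minus strand, all within coding exons.
TEF1: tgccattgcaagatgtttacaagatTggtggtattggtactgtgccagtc
TEF2: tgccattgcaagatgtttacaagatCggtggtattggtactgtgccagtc
EFT1: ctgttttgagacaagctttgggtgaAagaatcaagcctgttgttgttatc
EFT2: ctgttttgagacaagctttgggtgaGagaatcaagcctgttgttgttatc
TIF1: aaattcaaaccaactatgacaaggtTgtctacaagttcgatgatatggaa
TIF2: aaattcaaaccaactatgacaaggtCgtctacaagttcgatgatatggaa

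The windows from 250 bases before to 50 bases after the start codon were read from the R64 genome and searched on both strands for 3 motifs of genes for the translation machinery. The RRPE core AAAATTTT, first described in ribosome biogenesis (RiBi) genes, was in 8 of the 10 windows (every factor gene except TEF2 and TIF2). It was in 9.0% of the windows of 6020 coding genes, in 6.67% of those of r-protein genes and in 70.8% of those of RiBi genes. The PAC element GATGAG was in 2 of 10 (YEF3 and TIF2), against 20.3% of all windows and 82.1% of RiBi windows. ACCCNNACA, the core of the site of Rap1, the main activator of r-protein genes, was in 0 of 10, against 2.82% of all windows and 8.89% of r-protein windows. When the search was extended, after these results were seen, to 500 bases before the start codon, it was in TEF2 and TEF4, in 5.45% of all coding genes and in 40.0% of r-protein genes. A match describes letters and not a bound site. A few stretches are shown with the match in capitals, 4 with the RRPE core that most of the factor genes have and the last with the Rap1 core of TEF2. They come from chrXVI:700368-700417 (TEF1), chrIV:1243039-1243088 (EFT2), chrXII:636570-636619 (YEF3), chrV:85426-85475 (HYP2) and chrII:477216-477264 (TEF2), all on the plus strand.
TEF1: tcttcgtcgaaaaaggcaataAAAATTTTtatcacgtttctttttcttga
EFT2: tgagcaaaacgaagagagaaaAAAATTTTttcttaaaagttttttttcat
YEF3: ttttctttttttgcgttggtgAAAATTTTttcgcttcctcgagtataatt
HYP2: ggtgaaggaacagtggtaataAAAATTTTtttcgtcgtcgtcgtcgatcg
TEF2: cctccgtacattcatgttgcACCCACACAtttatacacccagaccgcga

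In mock-treated WT cells the most abundant transcripts per kilobase of coding sequence were those of HYP2, with 191366 and 180347 normalised counts per kb in replicates A and B. YEF3 followed with 132027 and 155752 and EFB1 with 120870 and 136592, and the ranges of these 2 genes overlapped. TEF4 (77295 and 78836), TEF2 (51537 and 56270) and TEF1 (47765 and 47049) came next. The eIF4A genes were lower, TIF1 with 33998 and 32832 and TIF2 with 27602 and 31865 normalised counts per kb, and EFT2 (9036 and 10449) and EFT1 (5335 and 6064) were last. All genes of the near-identical pairs came after the other genes here. Reads shared by 2 copies may be missing from their counts, so a low place need not mean less mRNA, and this was not tested. This order of levels per length was stable at both ends in the mock and DMSO libraries. HYP2, YEF3 and EFB1 were the first 3 in all 13 of these control libraries, with HYP2 first in 9 and YEF3 first in 4. EFT2 then EFT1 were last in 13 of 13. In the 0 min diamide library, given as RPKM, YEF3 (2276) and EFB1 (1812) came before HYP2 (1456). There EFT1 (124) was last, but EFT2 (181) lay above TIF1 (136) and TIF2 (127). Together the 10 genes held 1.64 to 2.07% of the normalised counts of the control libraries, and the r-protein genes 13.2 to 17.2%.

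The share of the libraries taken by both groups was followed through the treatments, as plotted by library. After 45 min of DZA the r-protein share was 5.55 and 5.34% against 14.7 and 14% with DMSO, whereas the share of the 10 factor genes was 1.40 and 1.43% against 1.81 and 1.85%. After auxin in LAS1-AID cells the r-protein share was 9.15 and 8.0% against 13.8 and 13.2% in mock-treated cells, and that of the factor genes 1.53 and 1.39% against 1.66 and 1.64%. The treated and control libraries did not overlap in either share in these comparisons. Both shares were also lower in RRP44-AID cells and at 15 min of DZA. In RRP17-AID cells the factor share was 1.75 and 1.65% against 1.76%, and the r-protein share 10.5 and 10.5% against 13.6%. In RAT1-AID cells the factor share was 1.90 and 2.18% against 1.90 and 1.77%, and the r-protein share 12.6 and 16.2% against 16.0 and 15.7%. In WT cells the factor share was 1.71 and 1.90% against 1.70 and 1.82%.

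**Figure D1:**
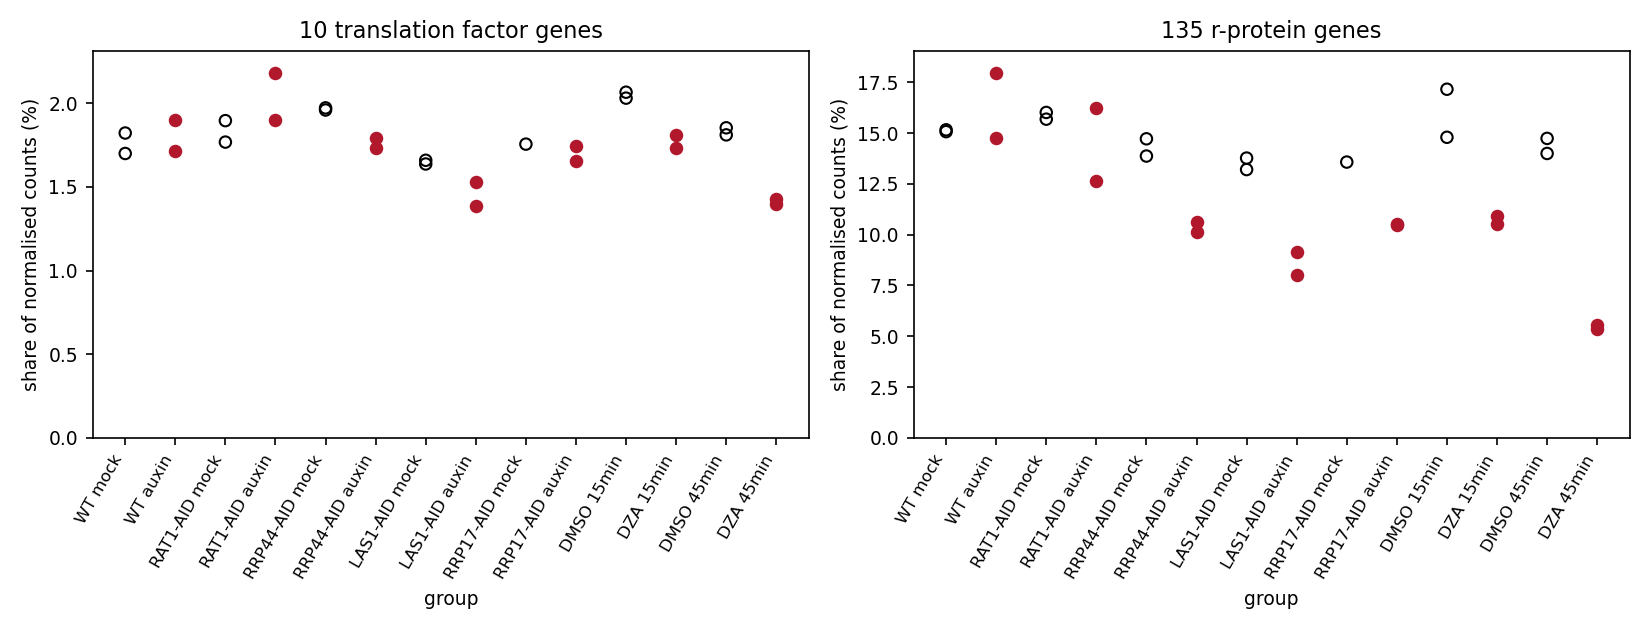
Share of all normalised counts (%) held by the 10 translation factor genes (left) and by the 135 r-protein genes (right), 1 point per library, open for control and filled for treated groups. With DZA for 45 min the factor genes stood at 1.40 and 1.43% and the r-protein genes at 5.55 and 5.34%, below their DMSO libraries.

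Of the 7 tables, the factor genes had the lowest median after 45 min of DZA. All 10 were lower (limma on log2 values, adjusted p under 0.05), against 23.7% of the 6476 features tested that were called lower. Their median log2 fold change was -0.68, with a range from -1.35 to -0.37, while the median of all features was -0.01. The r-protein genes fell further, with a median of -1.68 and 132 of 135 called lower. Of the 135 r-protein genes, between 123 (EFT2) and 134 (TEF1, EFB1, TEF4, HYP2 and TIF1) had a lower log2 fold change than the factor gene.

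The eEF2 genes fell most. EFT2 had 26540 and 27010 normalised counts with DMSO and 10426 and 10548 with DZA, a log2 fold change of -1.35 ± 0.05 (SE; limma adjusted p = 0.000253), which left 39.2% of the control level. EFT1 had 16081 and 16743 with DMSO and 8607 and 9067 with DZA, a log2 fold change of -0.89 ± 0.06 (limma adjusted p = 0.000838). Neither gene's DZA libraries came near its DMSO libraries. The eIF4A gene TIF2 went from 37729 and 34551 to 21821 and 20465 (-0.77 ± 0.07, limma adjusted p = 0.00193), and TIF1 from 45062 and 37093 to 28423 and 23277 (-0.67 ± 0.14, limma adjusted p = 0.0192).

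YEF3, with the highest read count of the 10, had 468879 and 505055 normalised counts with DMSO and 272332 and 298822 with DZA (-0.77 ± 0.09, limma adjusted p = 0.0039). The eEF1A genes fell by similar amounts. TEF2 went from 80940 and 85502 to 47764 and 55361 (-0.69 ± 0.09, limma adjusted p = 0.00499) and TEF1 from 75828 and 65854 to 47453 and 43902 (-0.63 ± 0.09, limma adjusted p = 0.00672). The exchange factor subunits fell less, TEF4 from 110729 and 105719 to 75826 and 70937 (-0.56 ± 0.06, limma adjusted p = 0.00371) and EFB1 from 85373 and 88415 to 65041 and 69020 (-0.37 ± 0.06, limma adjusted p = 0.00903). In each of these genes both DZA libraries were below both DMSO libraries. HYP2, from 100412 and 88333 to 76106 and 68952 (-0.38 ± 0.09, limma adjusted p = 0.0293), also did not overlap, so that the groups were separate for 10 of 10 factor genes, against 75.2% of all features in either direction. The HYP2 call was lost when DMSO replicate A or DZA replicate B was left out, with 9 of 10 members called then. With each identical pair summed, all 7 remaining features were still called lower, with -1.16 for EFT1 plus EFT2, -0.66 for TEF1 plus TEF2 and -0.72 for TIF1 plus TIF2.

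**Figure D2:**
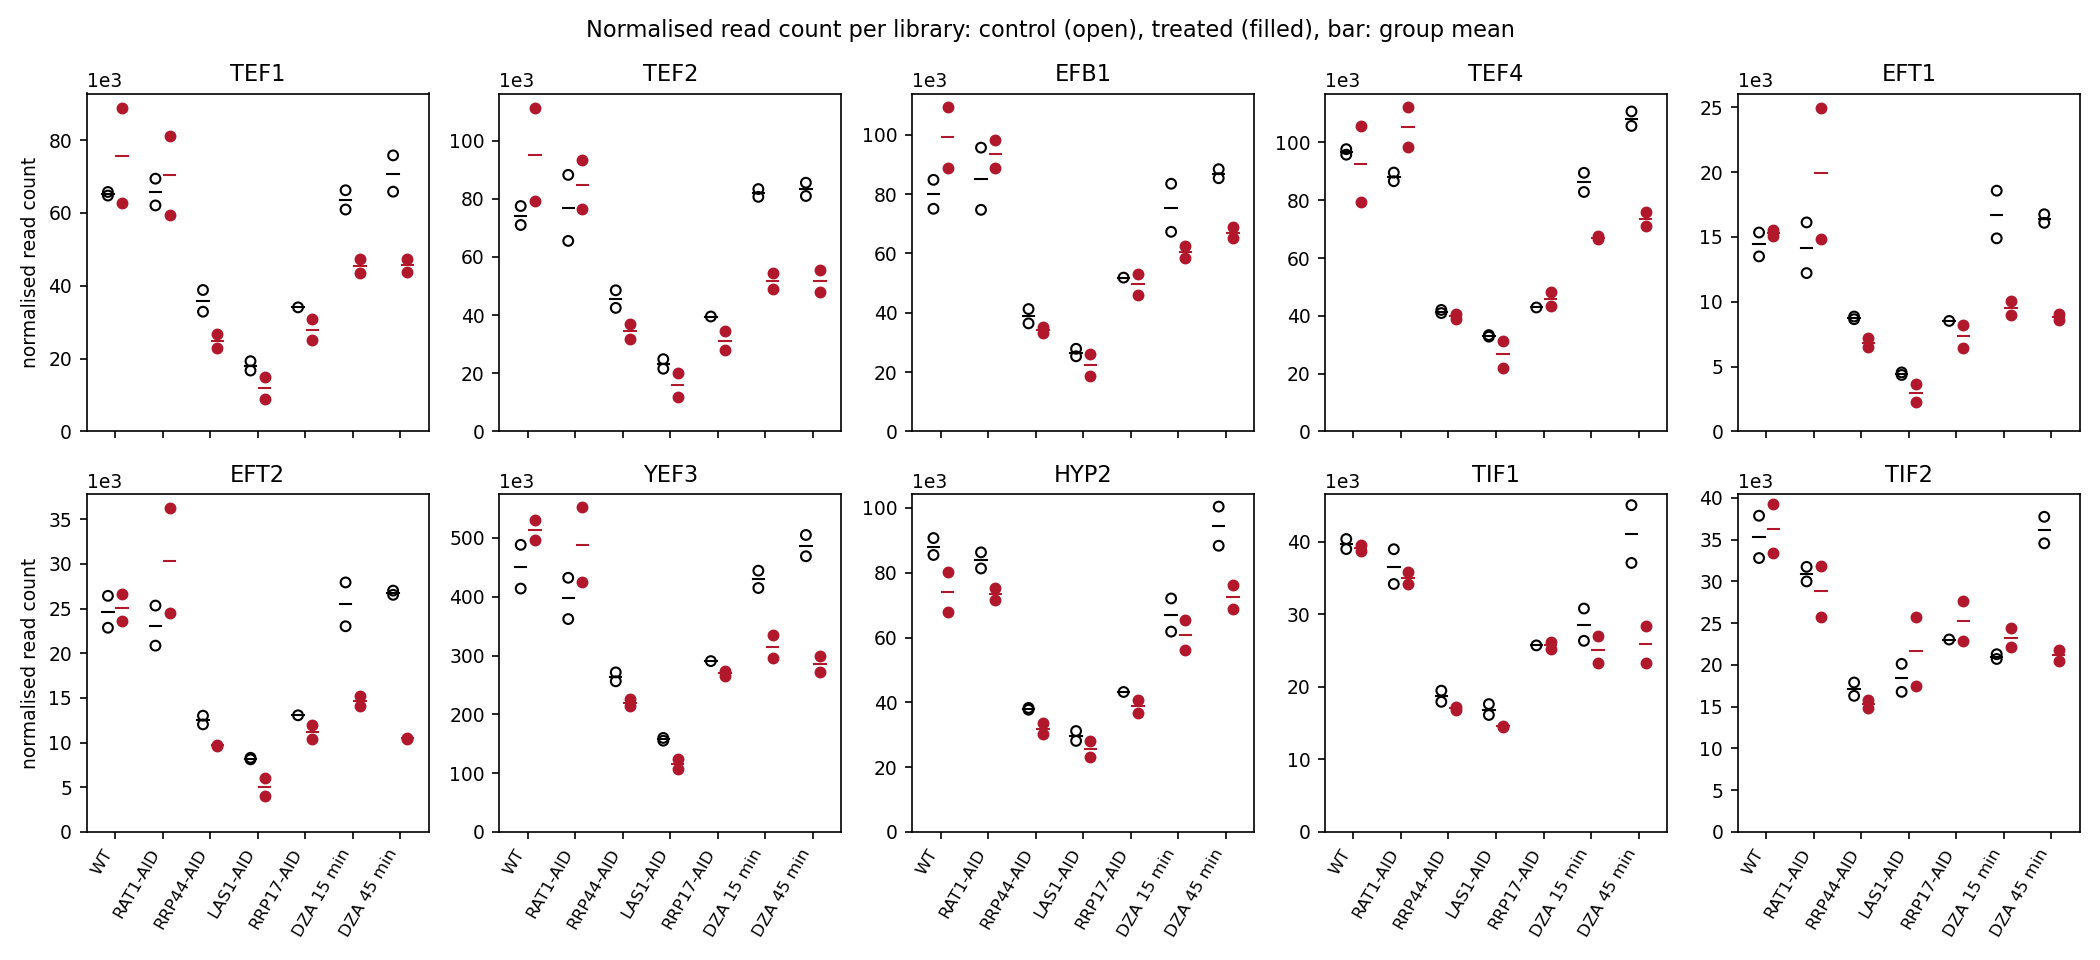
Normalised read count of each translation factor gene in every library, by table on the horizontal axis, open circles for control and filled circles for treated libraries, bars at the group means, vertical axes from 0. In the DZA 45 min table every filled circle lies below the open circles of the same gene, as for EFT2 with 10426 and 10548 against 26540 and 27010; tables were scaled separately, so levels are comparable only within a table.

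To measure how far the factor genes departed from the r-protein genes, the same limma fit was run after subtracting, in each library, the median log2 value of the r-protein genes. Every feature of a library shares the error of that median. Intervals and calls on this scale rest largely on variance pooled over features, so they may look firmer than the libraries allow. After 45 min of DZA all 10 were higher on this relative scale, but so were 96.4% of all features tested, so this count says little about the factor genes. The size of the difference varied among them. EFT2 lay 0.30 above the r-protein median (95% interval 0.14 to 0.46), EFT1 0.76 (0.57 to 0.94) and EFB1 1.27 (1.08 to 1.46) on the log2 scale.

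After 15 min of DZA none of the 10 factor genes passed the limma test (0 of 10, against 1.13% of 6311 features called lower). An unadjusted p under 0.05 was found for 5 of 10, against 1660 of 6311 features. edgeR called 0, where 287 of 6348 features were called. DESeq2 called 4 (TEF1, TEF2, EFT1 and EFT2, all lower), where 946 of 6348 features were called. The r-protein genes had a median log2 fold change of -0.75, with 26 of 135 called lower, and the factor genes a median of -0.40, with a range from -0.80 to 0.14. EFT1 had 18562 and 14886 normalised counts with DMSO and 8983 and 10079 with DZA (-0.80 ± 0.16, limma adjusted p = 0.0611), EFT2 27926 and 23020 against 14127 and 15261 (-0.79 ± 0.15, limma adjusted p = 0.057), and TEF2 80638 and 83321 against 49073 and 54400 (-0.67 ± 0.14, limma adjusted p = 0.0642). The groups did not overlap for these 3 genes and were separate for 8 of the 10, against 59.1% of all features in either direction. TIF2 had 20707 and 21275 with DMSO and 24369 and 22084 with DZA (0.14 ± 0.13, limma adjusted p = 0.53), the one positive value. The number of calls over the whole table depended on single libraries, and that of the factor genes with it. Without DMSO replicate A 6 members and 2587 of 6342 features were called, without DMSO replicate B 4 members and 2827 of 6356 features, and without DZA replicate A or B 0 members and 0 features.

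Relative to the r-protein median at 15 min, only TIF2 was called (0.86 higher, 95% interval 0.47 to 1.25, limma adjusted p = 0.0134), where 53.9% of all features were called higher. Without DMSO replicate A 3 members were called on this scale (4767 of 6342 features), without DMSO replicate B 5 (5122 of 6356), and without DZA replicate A or B 0 (159 of 6269 and 234 of 6279). The eEF2 and TEF2 differences from the r-protein median were small, at -0.09 (95% interval -0.50 to 0.32) for EFT1, -0.07 (-0.46 to 0.32) for EFT2 and 0.05 (-0.39 to 0.49) for TEF2, and these intervals leave room for a difference in either direction.

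The change of the DZA response between 15 and 45 min was tested directly in 1 fit over both tables. Only TIF2 was called, with a log2 fold change lower by 0.92 at 45 than at 15 min (difference -0.92 ± 0.13, limma adjusted p = 0.0251; 3.57% of 6421 features were called). The difference was -0.56 ± 0.15 for EFT2 (limma adjusted p = 0.104) and -0.48 ± 0.22 for TIF1 (0.277), and between -0.32 and -0.03 for the other 7 genes. The control level of TIF2 also differed between the times, at 20707 and 21275 with DMSO for 15 min and 37729 and 34551 with DMSO for 45 min, in tables scaled separately. With the paralogs summed no member was called, where 226 of 6418 features were. With the replicate block the TIF2 difference was the same (-0.92, limma adjusted p = 0.0768), but no feature of the 6421 was called in that fit. Nor was any feature called without any 1 of the 4 libraries of the 45 min table or of the 2 DZA libraries of the 15 min table, and the TIF2 difference then lay between -0.99 and -0.85. EFT2 was called as well (2 members) without DMSO replicate A or B of the 15 min table, where 1721 of 6441 and 2091 of 6445 features were called.

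Depletion of Rrp44, the catalytic exosome subunit, was followed by lower eEF1A and eEF2 transcripts. In RRP44-AID cells 4 of the 10 factor genes were called lower after auxin, against 10.2% of the 6343 features, and all 10 log2 fold changes were negative with a median of -0.26. The r-protein genes had a median of -0.54 with 126 of 135 called lower. TEF1 had 38834 and 32878 normalised counts in mock-treated and 22898 and 26696 in auxin-treated cells (-0.53 ± 0.12, limma adjusted p = 0.0192). TEF2 had 48503 and 42453 against 31741 and 36999 (-0.41 ± 0.11, limma adjusted p = 0.0417). For eEF2, EFT1 had 8650 and 8855 against 6478 and 7185 (-0.36 ± 0.08, limma adjusted p = 0.0215), and EFT2 12034 and 13011 against 9663 and 9743 (-0.37 ± 0.08, limma adjusted p = 0.0165). In these 4 genes both auxin libraries lay below both mock libraries. The groups were separate for all 10 factor genes, against 66.6% of all features in either direction.

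The other 6 factor genes had log2 fold changes from -0.27 (YEF3, limma adjusted p = 0.138) to -0.06 (TEF4, limma adjusted p = 0.631) in RRP44-AID cells. Most features lay above the falling r-protein median in these cells. On the scale relative to it TEF1 lay at 0.01 (95% interval -0.21 to 0.24), TEF2 at 0.14 (-0.08 to 0.36), EFT1 at 0.19 (-0.05 to 0.43) and EFT2 at 0.18 (-0.07 to 0.43), and none of these 4 was called. EFB1, TEF4, YEF3, HYP2, TIF1 and TIF2 were called higher than the r-protein median, 6 of 10 against 79.5% of all features, so the count is no result about these genes, with the largest difference for TEF4 (0.49, 95% interval 0.26 to 0.71). The calls of lower levels were 0 without auxin replicate A (701 of 6311 features called), 1 (TEF1) without auxin replicate B (658 of 6317), 3 without mock replicate A (1932 of 6371) and 5 (with EFB1) without mock replicate B (2906 of 6374), and the relative calls 2 without auxin replicate A (3543 of 6311). They were also 0 without the filter on low values or with eBayes run without trend.

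Las1 is the endonuclease that cuts the second internal spacer of pre-rRNA. After its depletion 3 of 10 factor genes were called lower, against 17.2% of 6103 features, and the median over the 10 was -0.39, with -0.82 for the r-protein genes (133 of 135 called lower). EFT2 had 8126 and 8296 normalised counts in mock-treated and 6041 and 4069 in auxin-treated cells (-0.73 ± 0.16, limma adjusted p = 0.00945), and EFT1 4545 and 4347 against 3636 and 2251 (-0.64 ± 0.18, limma adjusted p = 0.0287). TEF1 had 19277 and 16708 against 15030 and 8877 (-0.64 ± 0.21, limma adjusted p = 0.0482). Auxin replicate B was the lowest library for each of these 3 genes, although replicate A was also below both mock libraries. The groups were separate for 8 of the 10 factor genes, against 70.8% of all features in either direction. TIF2 was the exception in sign, with 16772 and 20120 against 17500 and 25781 (0.21 ± 0.18, limma adjusted p = 0.405).

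With replicates paired by letter (replicate block), TEF2 (limma adjusted p = 1.71e-06) and TEF4 (0.0337) were also called lower in LAS1-AID cells. That fit has 1 residual degree of freedom, so its p-values rest mainly on variance pooled over features. Pairs A and B differed by -0.32 and -0.86 for TEF2 and by -0.06 and -0.60 for TEF4. With the block 5 members were called, where 3101 of 6103 features were. The count was 9 without auxin replicate A (8 lower and TIF2 higher, where 3012 of 6052 features were called), 2 without mock replicate A (1207 of 6137) and 4 without mock replicate B (1390 of 6140). TEF1 was not called by edgeR or DESeq2. These called 2 (EFT1 and EFT2, where 2036 of 6107 features were called) and 3 (with YEF3, where 1739 of 6107 were). Nor was TEF1 called with the pairs summed, where only EFT1 plus EFT2 was (-0.69 ± 0.17, limma adjusted p = 0.0155). Relative to the r-protein median, 6 of 10 were called higher (EFB1, TEF4, YEF3, HYP2, TIF1 and TIF2), against 86.5% of all features, from 0.35 for YEF3 to 1.01 for TIF2. The eEF1A and eEF2 genes lay between 0.07 (EFT2, 95% interval -0.28 to 0.42) and 0.21 (TEF2, -0.07 to 0.50) above that median and were not called. These intervals rest mainly on variance pooled over features and may be too narrow. This relative count, like the number of all features called, changed with the library left out.

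RRP17-AID cells allowed a weaker comparison, with 1 mock library against 2 auxin libraries and 1 residual degree of freedom, in which the lone mock library was assumed to vary like the auxin pair. None of the 10 factor genes was called (0 of 10 against 0.393% of 6103 features called lower; limma, edgeR and DESeq2 each 0), and 1 had an unadjusted p under 0.05. This was TEF2, with 39487 normalised counts in the mock library and 34513 and 27830 after auxin (-0.35 ± 0.15, limma adjusted p = 0.345). The median over the 10 was -0.13 and that of the r-protein genes -0.42, with 11 of 135 called lower. Relative to the r-protein median 4 of 10 were called higher (EFB1, TEF4, TIF1 and TIF2), against 73.3% of all features, with 0.60 for TIF2 (95% interval 0.31 to 0.89).

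Depletion of Rat1, a nuclear 5′ to 3′ exonuclease, gave no call among the factor genes (0 of 10 by limma, edgeR and DESeq2). By limma 6.02% of 6524 features were called lower. An unadjusted p under 0.05 was found for 0 of 10, against 2098 of 6524 features. Their median log2 fold change was 0.15, with the largest value for EFT1, at 16116 and 12206 normalised counts in mock-treated and 14852 and 24924 in auxin-treated cells (0.46 ± 0.26, limma adjusted p = 0.285). Auxin replicate B alone was above both mock libraries for this gene, with pairs A and B differing by -0.12 and 1.03. The r-protein genes had a median of -0.08, with 10 of 135 called lower. Relative to the r-protein median 0 of 10 were called, against 10% of all features called higher (YEF3, at 0.37, was the one with an unadjusted p under 0.05). With the replicate block 1 (YEF3) was called on this scale, where 510 of 6524 features were.

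In WT cells without a degron, auxin gave 0 calls among the 10 factor genes and 0 among all 6295 features (0% higher and 0% lower). None of the 10 had an unadjusted p under 0.05, and edgeR and DESeq2 also called 0 of them. The largest difference was that of TEF2, with 70967 and 77484 normalised counts in mock-treated and 111218 and 79164 in auxin-treated cells (0.34 ± 0.23), where auxin replicate A stood above the rest. EFB1 showed the same library apart, with 75060 and 84824 against 109403 and 88898 (0.31 ± 0.20). Relative to the r-protein median, which was 0.19 higher after auxin, 0 of 10 and 0% of all features were called, and TEF4 and HYP2 (2 members) were called without auxin replicate B, where 1055 of 6303 features were.

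Whether the response of each degron strain differed from that of WT cells was tested in joint fits, which share the WT libraries. No factor gene was called in RAT1-AID (0 of 10 and 0 with an unadjusted p under 0.05, where 6.95% of 6458 features were called), in RRP44-AID (0 of 10 and 5 with an unadjusted p under 0.05, where 5.66% of 6356 were called) or in LAS1-AID cells (0 of 10 and 3 with an unadjusted p under 0.05, where 7.53% of 6227 were called). The share of all features with an unadjusted p under 0.05 was not computed for these fits. edgeR and DESeq2 each called 0 for RAT1-AID. For LAS1-AID edgeR called 0 and DESeq2 1 (YEF3), where DESeq2 called 770 of 6247 features. So for the eEF1A and eEF2 genes called lower in the RRP44-AID and LAS1-AID tables, the difference from the WT response itself did not pass the test. The differences were -0.74 for TEF2 (95% interval -1.35 to -0.14, limma adjusted p = 0.146) and -0.45 for EFT1 (-0.78 to -0.11, limma adjusted p = 0.122) in RRP44-AID, and -0.75 for EFT2 (-1.34 to -0.17, limma adjusted p = 0.12) in LAS1-AID cells. Without WT auxin replicate B, the lower of the WT auxin libraries for TEF2, 3 members (TEF1, TEF2 and EFB1) were called for RRP44-AID and 1 (TEF2) for LAS1-AID, where 1456 of 6367 and 1397 of 6216 features were called. EFT1 and EFT2 were called for LAS1-AID with the replicate block, where 1021 of 6227 features were.

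**Figure D3:**
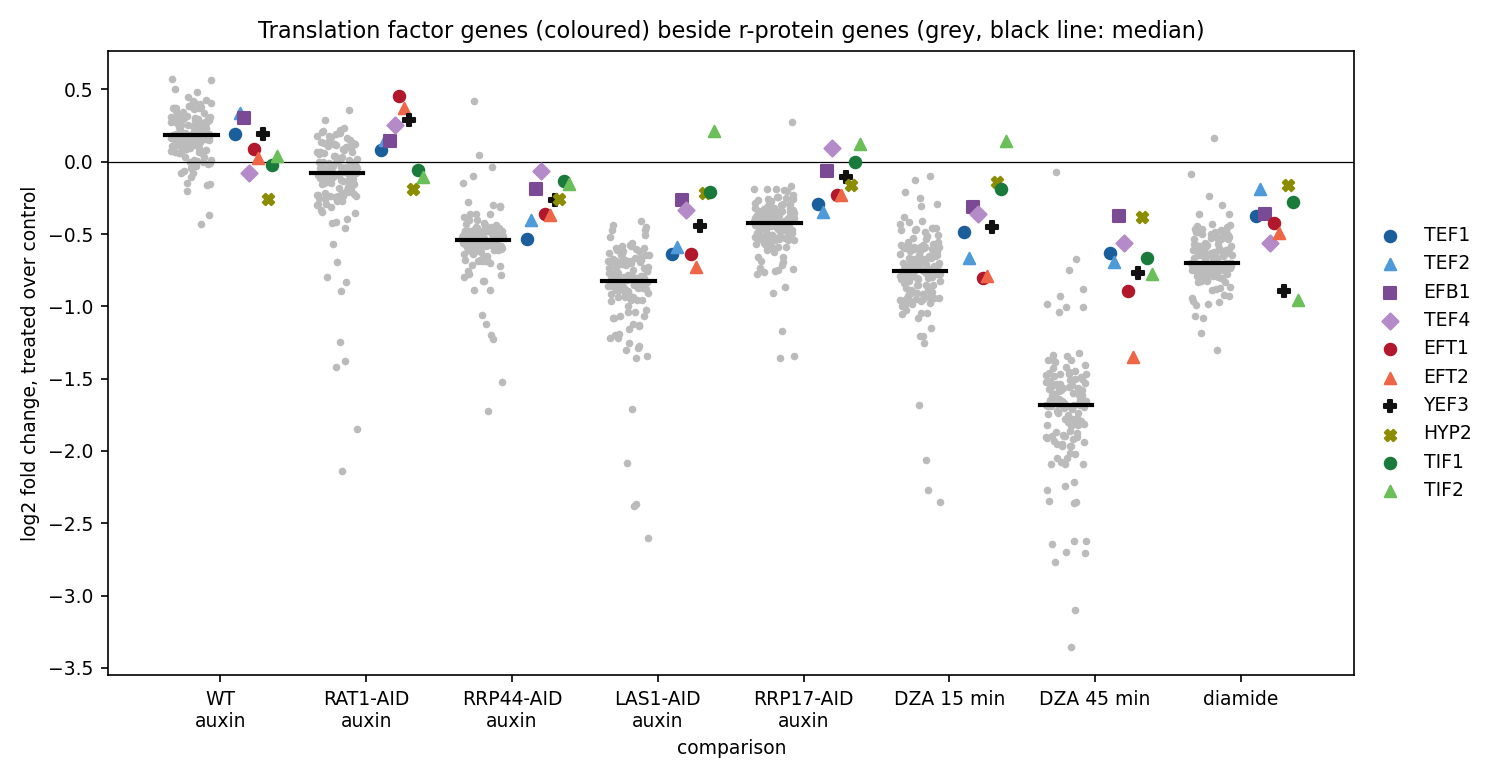
Log2 fold change (vertical axis) of the 135 r-protein genes (grey points, black line at their median) and of the 10 translation factor genes (coloured symbols) in the 7 auxin and DZA tables and after diamide. At 45 min of DZA the r-protein median was -1.68 and that of the factor genes -0.68, and the eEF2 genes EFT1 and EFT2 were the lowest factor genes.

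The median of the factor genes lay above that of the r-protein genes in all 4 degron strains and at both times of DZA, and below it in WT cells with auxin. The median of all features lay on the same side of the r-protein median in each of these 7 tables. EFT1 and EFT2 were among the 4 lowest factor genes in the RRP44-AID, LAS1-AID and both DZA tables, and TIF2 the highest value in the LAS1-AID, RRP17-AID and 15 min DZA tables.

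**Figure D4:**
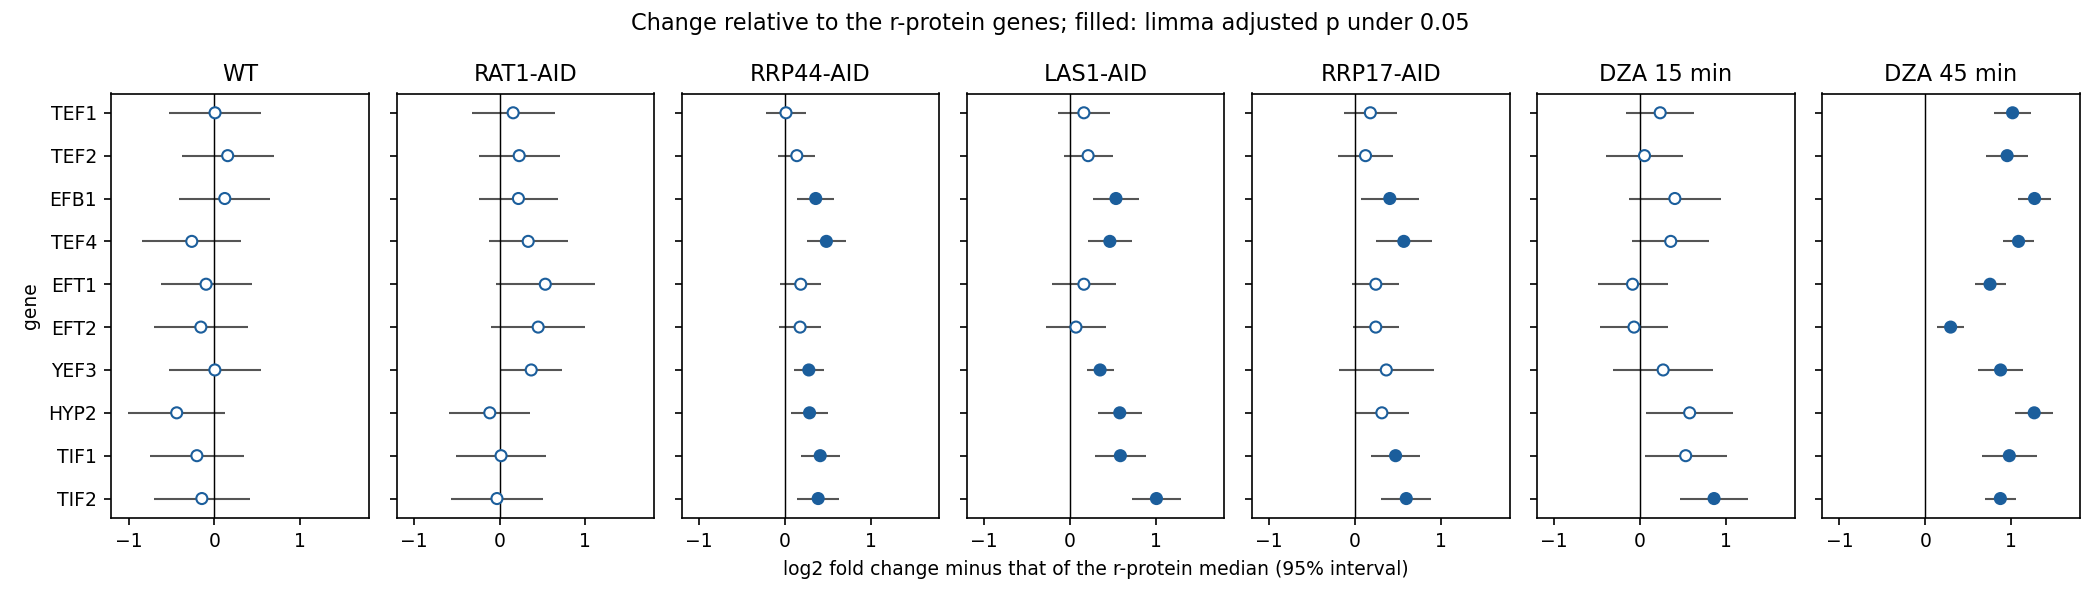
Log2 fold change of each translation factor gene minus that of the r-protein median, with 95% intervals, in the 7 tables; filled circles were called by limma at an adjusted p under 0.05. TEF1, TEF2, EFT1 and EFT2 are open in the RRP44-AID, LAS1-AID, RRP17-AID and DZA 15 min panels, and all 10 are filled at 45 min of DZA, where 96.4% of all features were called. The intervals rest largely on variance pooled over features and may be too narrow.

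After diamide there was 1 library per time point, so differences have no replicate check and no test was run. All 10 factor genes were lower at 15 than at 0 min, with a median log2 fold change of -0.40 in RPKM (reads per kilobase of feature, scaled to sequencing depth). Past 1.5-fold lower were 2 of 10, against 19.4% of 5760 features. TIF2 went from 127 to 65.3 RPKM (-0.96), on 1322 and 812 reads, and YEF3 from 2276 to 1227 RPKM (-0.89), on 55522 and 35724 reads. The paralog of TIF2, TIF1, went from 136 to 112 RPKM (-0.28), on 1319 and 1297 reads. How reads divide between these near-identical copies is uncertain. No summed value was computed after diamide, so whether the pair as a whole passed 1.5-fold is not given.

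The elongation factor genes other than YEF3 stayed within 1.5-fold after diamide. TEF4 went from 1051 to 710 RPKM (-0.56), EFT2 from 181 to 129 (-0.49), EFT1 from 124 to 92.8 (-0.42), TEF1 from 569 to 439 (-0.37) and EFB1 from 1812 to 1410 RPKM (-0.36). TEF2, from 684 to 601 RPKM, and HYP2, from 1456 to 1302 RPKM, had the smallest differences (-0.19 and -0.16). The order differed from that after 45 min of DZA, where EFT2 was lowest. The diamide libraries were built by another protocol than the auxin libraries and valued as RPKM. The part of this in the order was not tested.

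The r-protein genes had a median of -0.70 after diamide, with 98 of 135 past 1.5-fold lower, and the RiBi genes a median of -2.01, with 155 of 168 past it. Of the r-protein genes, 133 had lower values than TEF2 or HYP2 but 11 lower than YEF3 and 8 lower than TIF2.

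**Figure D5:**
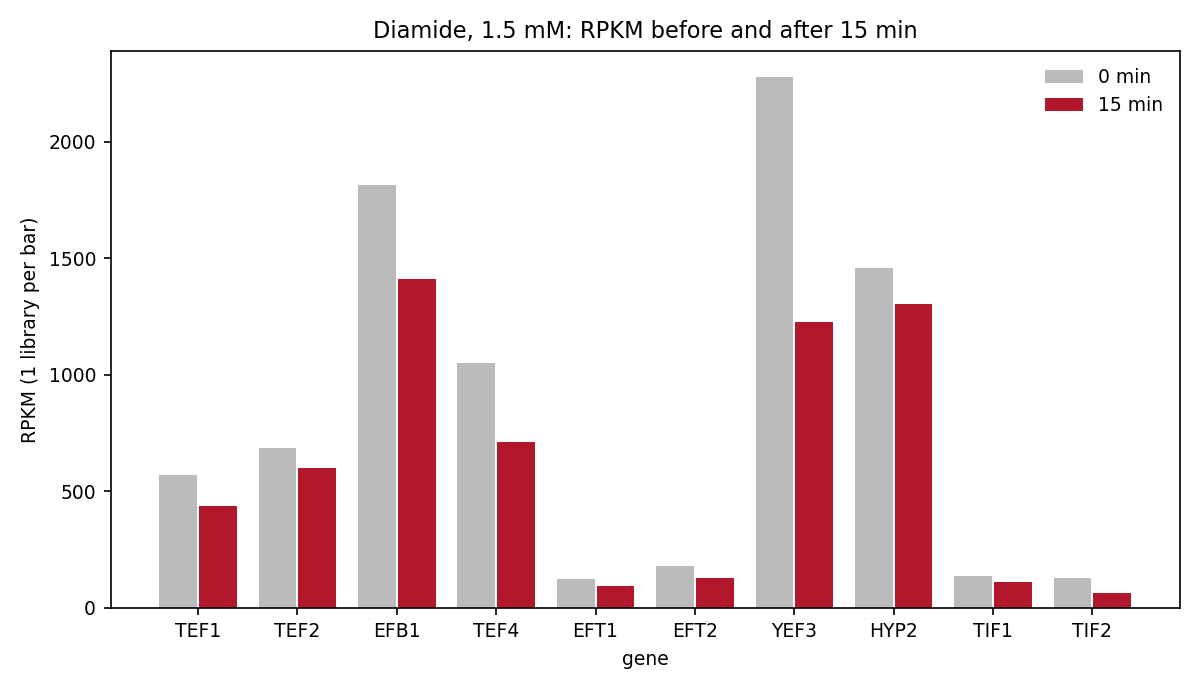
RPKM of the 10 translation factor genes before (grey) and after 15 min of 1.5 mM diamide (red), 1 library per bar, axis from 0. YEF3 went from 2276 to 1227 and TIF2 from 127 to 65.3, and all 10 red bars are lower than the grey ones.

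Other translation factors, 37 genes for initiation, elongation and termination factors and for their modifying enzymes, were compared with the 10. Of the 37, 23 were called lower and 3 higher after 45 min of DZA (median -0.32), against 23.7% of all features called lower. In LAS1-AID cells 10 were called lower and 1 higher (median -0.21), against 17.2% of all features called lower. In RRP44-AID cells 2 were called lower and 0 higher (median -0.14). There 10.2% of all features were called lower, a share that 2 of 37 does not exceed. No gene of the 37 was called in the other 4 tables. After diamide the median of the 37 was -0.74, with 26 of 37 past 1.5-fold lower, against 19.4% of all features. For the 10 factor genes described here these values were -0.40 and 2 of 10. HEF3, a paralog of YEF3, rose after 45 min of DZA, from 510 and 496 to 845 and 807 normalised counts (0.71 ± 0.09, limma adjusted p = 0.00447), opposite in sign to YEF3. GCD1, a subunit of the exchange factor eIF2B, also rose (0.44 ± 0.10, limma adjusted p = 0.0218). SUI3, the beta subunit of eIF2, fell from 20604 and 22947 to 11954 and 14220 (-0.74 ± 0.11, limma adjusted p = 0.00684), and DYS1, which begins the hypusine modification of eIF5A, fell from 24281 and 23331 to 15748 and 15013 (-0.63 ± 0.05, limma adjusted p = 0.00173).

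In LAS1-AID cells HEF3 rose by 0.41 ± 0.13 (limma adjusted p = 0.0428), and NIP1, an eIF3 subunit (-0.38 ± 0.10, limma adjusted p = 0.0209), and SUI3 (-0.36 ± 0.11, limma adjusted p = 0.0349) had the largest falls among the genes called. In RRP44-AID cells the 2 genes called were CAF20, which encodes an eIF4E-binding protein (-0.42 ± 0.11, limma adjusted p = 0.0386), and NIP1 (-0.32 ± 0.08, limma adjusted p = 0.0329).

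The introns of EFB1 and TEF4 hold the snoRNAs snR18 and snR38, which are processed from the spliced intron. In RAT1-AID cells snR18 rose from 638 and 636 to 2158 and 6298 normalised counts (2.53 ± 0.45, limma adjusted p = 0.0117) and snR38 from 432 and 260 to 1669 and 3807 (2.91 ± 0.41, limma adjusted p = 0.0053). Their host genes were not called, EFB1 at 0.14 ± 0.20 (limma adjusted p = 0.685) and TEF4 at 0.26 ± 0.19 (limma adjusted p = 0.394). Both snoRNAs were highest in auxin replicate B, and auxin replicate A was above both mock libraries too. In RRP44-AID cells snR38 rose from 468 and 689 to 1326 and 1214 (1.16 ± 0.18, limma adjusted p = 0.00577) and snR18 rose by 0.73 ± 0.19 (limma adjusted p = 0.0316). After 45 min of DZA, when both host mRNAs were lower, snR38 rose from 320 and 336 to 652 and 710 (1.05 ± 0.11, limma adjusted p = 0.0026) and snR18 rose by 0.62 ± 0.16 (limma adjusted p = 0.0306). After diamide snR18 was at 3391 and 2904 RPKM and snR38 at 4260 and 4029 RPKM.

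Over the 7 tables and diamide, the distance of each factor gene from the r-protein medians was computed as the root mean square difference of its 8 log2 fold changes. The diamide values come from another library protocol and from RPKM, and their weight in these distances was not tested. EFT2 was nearest (0.24), followed by EFT1 (0.37) and TEF1 (0.41), and HYP2 (0.62) and TIF2 (0.64) were farthest. TIF2 was also the factor gene farthest from the medians of the 10 (0.38), and TEF4 the nearest to them (0.15). Among 5639 features with values in all 8 comparisons, the 5 outside the 10 genes whose profile lay nearest the medians of the 10 were ILV3 (0.05), SAH1 (0.05), DED81 (0.07), VPH1 (0.07) and SPE3 (0.08). ILV3 encodes an enzyme of branched-chain amino acid synthesis, SAH1 S-adenosylhomocysteine hydrolase, DED81 the cytosolic asparaginyl-tRNA synthetase, VPH1 a subunit of the vacuolar proton pump and SPE3 spermidine synthase. None of the 5 is on the r-protein, RiBi or translation factor lists.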

How the data were processed

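The authors' processing used cutadapt for adapters, PRINSEQ for quality, TopHat2 2.1.0 for alignment (builds R64 and sacCer3 in the submitters' processing notes) and HTSeq for counting on Ensembl release 91. The deposited values of the 7 auxin and DZA tables are counts divided by DESeq2 size factors, a signal that is not a raw count. Whole reads were recovered from 27 of the 28 columns, where 100% of the low values came within 0.01 of a whole number. The RRP44-AID mock replicate B column gave none, so no count test was run on that table. The diamide files deposited by the authors hold RPKM for listed genomic intervals, with 1 library per time, and the read numbers given for them were computed back from the RPKM and interval lengths.

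Each table was fitted alone with limma 3.58.1 in R 4.3.3 on log2(normalised count + 1), with eBayes with trend, treatment as the only term, as in the study's design, features with a mean of at least 10, and Benjamini-Hochberg adjustment over all features (calls at 0.05, two-sided). The second fit subtracted the r-protein median of each library, and the joint fits tested differences of responses. Folds are on the log2(value + 1) scale. Diamide differences used the log2 ratio of RPKM + 0.1 (15 over 0 min) and a mean RPKM of at least 1. Intervals and tests rest on at most 2 libraries per group, with 1 for the RRP17-AID mock. Those relative to the r-protein median rest largely on variance pooled over features. The labels' growth notes put replicates of every experiment on separate days. On that ground the letters were taken to pair the samples, although no label ties a letter to a day. Same-letter deviations correlated at 0.45 (WT), 0.11 (RAT1-AID), 0.25 (RRP44-AID), 0.18 (LAS1-AID), -0.08 (DZA 15 min) and 0.58 (DZA 45 min), and the fit with the letter as a block is given where it changes a call. edgeR 4.0.16 (quasi-likelihood) and DESeq2 1.42.0 on recovered reads, other pseudocounts, filters and scalings, summed paralogs and leaving out each library were the alternatives. The code was tested on simulated data. The members and lists were chosen with earlier results of these data known. All 10 members were described; among the other translation factors those named were, in each comparison, the 2 that rose most and the 2 that fell most of the calls with the same sign in both letter pairs, and the nearest profiles were the 5 with the smallest root mean square difference. The r-protein (135 genes) and RiBi (168 genes) lists are the study's. No protein sequence was used here, and the submitters' comparison columns (fold changes and p-values) were not used.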

Additional observations from a re-analysis of the deposited data

Results flagged for a closer look

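TIF2 was the only factor gene whose response to DZA differed between the times in the joint fit, with a difference of -0.92 on the log2 scale (45 minus 15 min, limma adjusted p = 0.0251): higher in 2 of 2 letter pairs at 15 min and lower in 2 of 2 at 45 min. The call came from the test of the difference itself, and TIF2 was not tested against the other factor genes. EFT2 had a difference of -0.56 (limma adjusted p = 0.104). The value for its near-identical copy, TIF1, had the same sign (-0.48, limma adjusted p = 0.277), and the DMSO libraries of TIF2 themselves differed between the tables (20707 and 21275 against 37729 and 34551 normalised counts), whose part in the result was not tested. With TIF1 and TIF2 summed no call was made. With the replicate block the difference was the same (limma adjusted p = 0.0768), in a fit that called 0 of 6421 features.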

How the results depend on the processing

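No value of a called factor gene changed sign under any alternative run. Of 2416 single-gene values under alternatives, 2223 kept their direction and side of the threshold, 60 lost a call, 54 gained one and 79 changed sign while called in neither fit. Counts of factor genes called lower or higher were stable under all alternatives run for WT and RRP17-AID (0) and for DZA 45 min (7 of 7 with the pairs summed, 7 of 10 without the filter on low values, otherwise 9 or 10). For RRP44-AID (4) the count was 0 without the filter on low values, 0 with eBayes without trend, 2 with the pairs summed and 0 to 5 with 1 library left out. For LAS1-AID (3) it was 0 without the filter, 1 without trend (YEF3), 5 with the replicate block, 1 with the pairs summed and 2 to 9 with 1 library left out. For DZA 15 min (0) DESeq2 called 4, and leaving out 1 library gave 0 to 6, and for RAT1-AID (0) 0 to 1. For the time difference of the DZA response (1) the count was 0 with the replicate block, 0 with the pairs summed, 2 with DESeq2 and 0 to 2 with 1 library left out, and the fit with the block and 6 of the 8 with a library left out called no feature at all. For LAS1-AID against WT (0) it was 2 with the replicate block, 1 with DESeq2 and 0 to 2 with 1 library left out, and for RRP44-AID against WT (0) 0 to 3. Relative to r-protein genes the counts with 1 library left out were 0 to 2 in WT, 0 to 2 in RAT1-AID (1 with the replicate block), 2 to 6 in RRP44-AID, 3 to 9 in LAS1-AID and 0 to 5 at 15 min of DZA. The replicate block changed no other count by more than 1.5 times, and the causes were not tested.

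Each group had 2 libraries, which limits these calls. The least covered factor gene in a control library with recovered reads, EFT1, had 4602 reads. Leaving out a library could not be fitted for RRP17-AID, nor the replicate block there. The RRP44-AID table had no count test (edgeR or DESeq2).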
